A study of Mus musculus with 8 samples.

Results

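The 10 genes described here encode subunits of the nucleosome remodeling and deacetylase (NuRD) complex, a repressor complex of chromatin. They were chosen by name as Chd4, Mta1, Mta2, Mta3, Hdac1, Hdac2, Mbd3, Gatad2a, Gatad2b and Rbbp7, and are 10 of the 18193 genes measured. The arrays carry 26 probe sets with one of these symbols, out of 34945 that name a single gene, and a gene's value is that of the probe set whose mean over the 8 arrays was highest. Of the 10 subunits, 8 were called present by the Affymetrix detection call in every line of at least 1 genotype, as were 7306 of all genes. Mbd3 and Mta2 were called present on no array.

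Zfp281 is a zinc finger protein of mouse embryonic stem cells (ESCs), and the study asked what its loss does to expression in these cells. Total RNA of 8 ESC lines was measured on Affymetrix mouse genome arrays, with a single array per line. The groups were wild-type ESCs (lines 3, 3.2 and 3.3), heterozygous ESCs (lines 3.1 and 5) and null ESCs (lines 3.34, 3.38 and 7), called Zfp281 deficient in the labels, and values of a genotype are given in this order of lines throughout. The null allele lacks both exons, which a floxed neomycin resistance cassette replaced in CJ7 ESCs, and the lines were outgrowths of blastocysts from matings of heterozygous mice. A form of the allele without the cassette also exists in the study, and which form each line carries was not found in the labels or the methods. All lines were kept on primary mouse embryonic fibroblasts with serum and LIF and were given no further treatment. Each line is 1 sample, so the spread within a genotype holds differences between lines together with technical error, and p-values measure only that spread.

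NuRD joins ATP-dependent nucleosome remodeling to histone deacetylation. Chd4 is the remodeling ATPase, Mta proteins are the scaffold that holds the deacetylases Hdac1 and Hdac2, Mbd3 and the Gatad2 proteins link the remodeling and the deacetylase modules, and Rbbp7 and its paralog Rbbp4 bind histones. In ESCs, Mbd3-containing NuRD is known for restraining pluripotency genes and for permitting exit from self-renewal, and members of several of these pairs can replace each other within the complex.

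Zfp281 is known to bind a G-rich sequence, so the start regions of the subunit genes are shown for the gene that holds its core and for the genes the results turn on. The RefSeq tables (GRCm38.p6 build) gave 11 promoter windows for 8 of the 10 subunits, each from 250 bases before to 50 bases after a transcription start. Hdac1 and Mta3 were not matched. The letters GGGGAGGGG, searched on both strands, were in 1 of the 11 windows, that of Mta1, and in 6.37% of all 32851 windows. The letters GGGCGG of a GC box, on both strands and nowhere overlapping the first motif in these windows, were in 11 of 11 subunit windows and in 35.7% of all windows. The 250 bases before the start follow, 5′ to 3′ on the gene's strand. Capitals mark GGGGAGGGG on either strand in Mta1, and GGGCGG on either strand in Rbbp7 and Chd4, for which the second of 2 listed starts is shown.
Mta1 (chr12:113098028-113098277, plus strand): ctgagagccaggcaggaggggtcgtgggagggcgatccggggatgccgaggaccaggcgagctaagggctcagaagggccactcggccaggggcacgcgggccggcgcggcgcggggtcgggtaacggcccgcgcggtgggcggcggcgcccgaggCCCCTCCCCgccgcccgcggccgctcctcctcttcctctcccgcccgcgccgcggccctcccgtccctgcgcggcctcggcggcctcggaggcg
Rbbp7 (chrX:162760122-162760371, plus strand): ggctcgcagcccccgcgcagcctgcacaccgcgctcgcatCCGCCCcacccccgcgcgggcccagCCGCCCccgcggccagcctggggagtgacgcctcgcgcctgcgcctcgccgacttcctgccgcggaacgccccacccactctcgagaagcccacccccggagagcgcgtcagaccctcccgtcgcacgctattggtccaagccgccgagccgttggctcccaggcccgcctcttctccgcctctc
Chd4 (chr6:125095913-125096162, plus strand): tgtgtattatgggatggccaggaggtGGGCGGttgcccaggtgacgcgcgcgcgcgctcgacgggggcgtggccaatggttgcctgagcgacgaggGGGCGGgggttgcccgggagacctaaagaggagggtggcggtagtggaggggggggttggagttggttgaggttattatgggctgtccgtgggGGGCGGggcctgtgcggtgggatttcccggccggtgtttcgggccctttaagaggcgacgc
A match is a description of the letters and not of a bound site, and a window without a match says nothing beyond its own letters. The GGGGAGGGG match of Mta1 lay 94 bases before its start. The Mta1 values below can be read beside it, and those of the other 7 subunits with a window beside windows in which only GGGCGG was found.

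The arrays differed in ways that touch the subunits. Zfp281 itself had log2 values of 6.88, 7.93 and 6.72 in wild-type ESCs, 6.97 and 6.69 in heterozygous ESCs and 5.06, 5.23 and 3.64 in null ESCs. It was called present in 2 of the 3 null lines, although their allele lacks both exons, and the heterozygous lines overlapped with the wild-type lines. The study found no Zfp281 transcripts in its null ESCs by RT-PCR, and the source of the array signal was not tested. The null minus wild-type log2 difference of Zfp281 was −2.54 (limma adjusted p = 0.0467). The 3′ minus 5′ log2 difference of the Gapdh and beta-actin controls, a measure of RNA or cDNA length, had means and SDs of 4.61 ± 0.34 over the 3 wild-type lines, 4.64 ± 0.22 over the 2 heterozygous lines and 3.30 ± 0.55 over the 3 null lines. No null line (2.68 to 3.71) overlapped with the wild-type (4.23 to 4.86) or heterozygous lines (4.49 to 4.80). Fits with this difference as a covariate therefore cannot tell it apart from genotype. Of 12 ESC markers, 11 were called present in every line, and their summed level was 13.18 to 13.56 (log2) in wild-type, 13.50 to 13.60 in heterozygous and 14.19 to 14.35 in null lines. Of 19 feeder fibroblast markers, 13 to 18 were present in wild-type, 16 to 18 in heterozygous and 13 to 16 in null lines, with summed levels of 12.20 to 12.74, 12.38 to 12.41 and 11.92 to 12.12. Among them Pdgfrb was called present in no line. Of 12 endoderm markers, 8 to 10, 4 to 10 and 6 to 8 were present, with summed levels of 9.78 to 11.28, 9.42 to 9.84 and 9.18 to 9.80. By quantitative PCR the study reported endoderm markers as derepressed in its null ESCs, and no comparison gene by gene was made here. Between null and wild-type ESCs, 2 of the 12 ESC markers passed an adjusted p under 0.05 in limma, Dppa5a (log2 fold change 1.23) and Dppa4 (0.88), both higher. Of the endoderm markers 1 passed, Lamb1 (−1.25), and of the feeder markers 0, against 1.13% of all genes. The part of these markers in the differences below was not tested, and in such bulk RNA fewer cells of a type and less RNA per cell cannot be told apart.

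No NuRD subunit passed an adjusted p under 0.05 between Zfp281 null and wild-type ESCs. The 8 detected subunits had log2 fold changes between −0.51 (Rbbp7) and 0.54 (Hdac1). In limma, 0 of the 10 subunits passed against 1.13% of all genes (206). The 206 became 2, 4 and 3 when wild-type line 3, wild-type line 3.2 or null line 7, respectively, was left out. None of the 10 was past 2-fold against 2.47% of all genes. At an unadjusted p under 0.05, 2 of the 10 passed, Mta3 and Rbbp7, against 16.4% of all genes and 31.7% of the detected ones. Null and wild-type lines did not overlap for 2 of the 10 subunits, Hdac1 (higher) and Rbbp7 (lower), against 22.4% of all genes. These shares are near the background of the whole array or below it. Mta3 counts as detected only through the null lines, in which it was high, so the counts and medians over detected subunits are given as a description. The median log2 fold change was −0.11 over the 8 detected subunits, with 2 higher and 6 lower, and −0.02 over all detected genes. Over all 10 subunits it was −0.06.

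**Figure D1:**
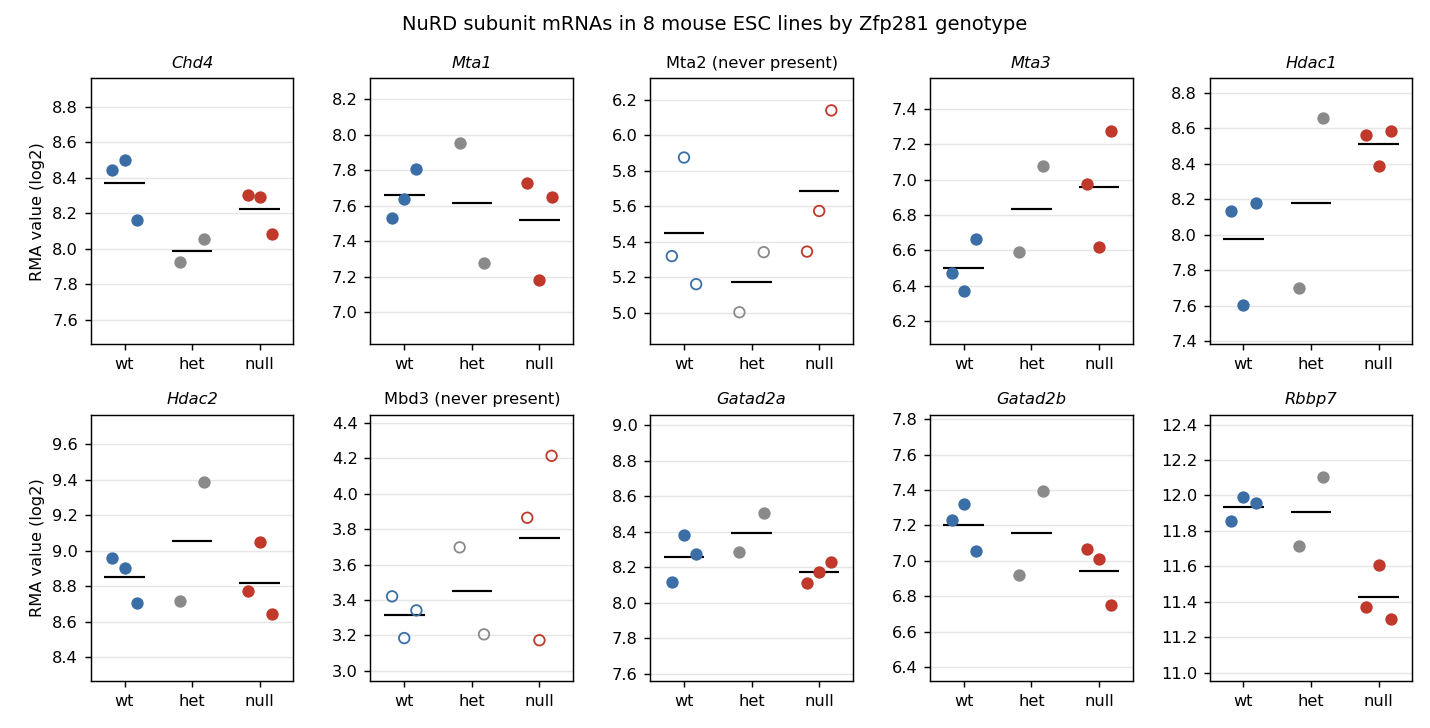
RMA value (log2) of each NuRD subunit on its probe set with the highest mean, 1 point for each ESC line, grouped as wild-type (wt, lines 3, 3.2 and 3.3 from left to right), heterozygous (het, lines 3.1 and 5) and null (lines 3.34, 3.38 and 7), with the mean of each genotype as a bar. All panels span the same log2 range, open circles stand for the subunits called present on no array, and among the filled panels only Hdac1 and Rbbp7 show no overlap of null with wild-type lines.

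The size of a difference that the arrays could have missed differs between subunits. Of the 8 detected subunits, 7 had a 95% interval from limma that lay within 2-fold in both directions for null against wild-type, as had 73.9% of all detected genes. The exception was Hdac1, with an interval of 0.98-fold to 2.16-fold. Gatad2a had the narrowest interval, 0.79-fold to 1.13-fold. Each interval holds for 1 probe set of the gene only. On 1423992_at, the other Gatad2a probe set called present on all 8 arrays, the log2 interval was 0.096 to 0.81. All 8 intervals lay within 2-fold between heterozygous and wild-type ESCs (84.2% of detected genes) and between null and heterozygous ESCs (68.9%). The within-genotype SD was smallest for Gatad2a (0.12 on the log2 scale) and Chd4 (0.14) and largest for Hdac1 (0.37), and its median was 0.23 over the detected subunits and 0.25 over all detected genes.

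**Figure D2:**
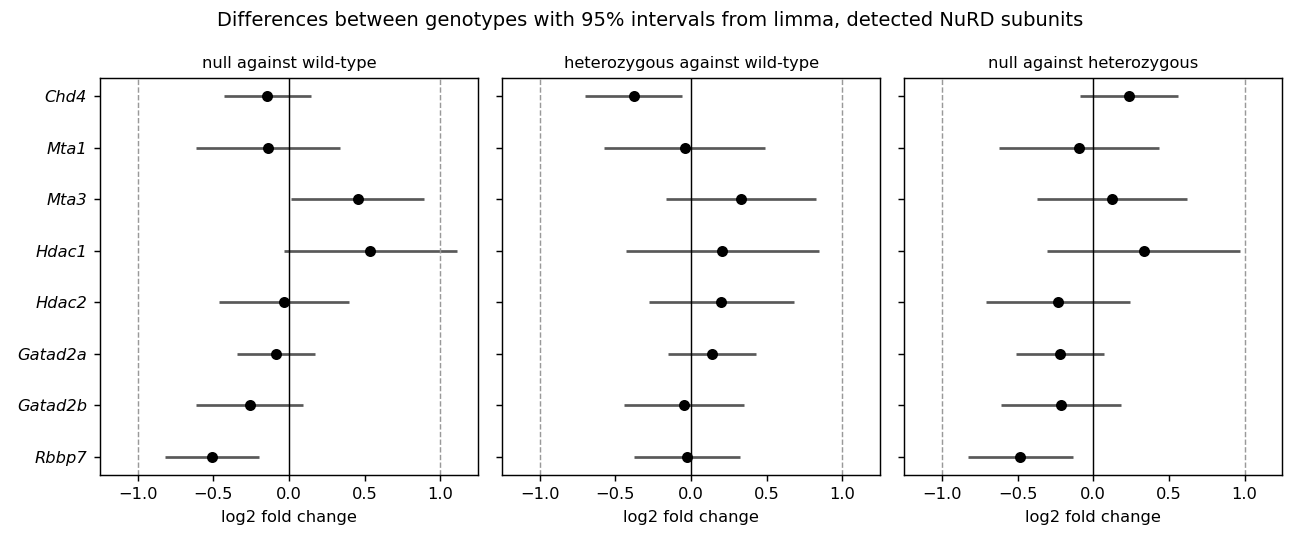
Log2 fold change (points) with its 95% interval from limma (bars) for the 8 detected subunits in the 3 comparisons of genotypes, with dashed lines at 2-fold in each direction. Of the 24 intervals only that of Hdac1 between null and wild-type ESCs crosses a 2-fold line, and those of Rbbp7 lie below 0 in both comparisons of the null lines. That of Chd4 lies below 0 between heterozygous and wild-type ESCs, and that of Mta3 above 0 between null and wild-type ESCs. The intervals are not adjusted for the number of genes.

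Chd4, the ATPase that slides nucleosomes for the complex, had log2 values of 8.45, 8.50 and 8.16 in wild-type, 7.92 and 8.06 in heterozygous and 8.30, 8.29 and 8.08 in null ESCs. Both heterozygous lines thus lay below every wild-type and every null line, while null and wild-type lines overlapped. The log2 fold change was −0.38 between heterozygous and wild-type ESCs (SE 0.14, unadjusted p = 0.0259, limma adjusted p = 0.997) and −0.14 for null against wild-type (SE 0.13, limma adjusted p = 0.680). Among the lines in which the Y-linked gene Eif2s3y was not called present, which leave 1 wild-type and 1 heterozygous line, the heterozygous difference was −0.11.

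A second Chd4 probe set, 1436343_at, also called present on all 8 arrays, gave the heterozygous lines the same place. It read 6.57, 6.27 and 6.43 in wild-type ESCs, 6.00 and 5.53 in heterozygous ESCs, and 6.59, 6.64 and 6.60 in null ESCs. The 3 null lines were within 0.05 of each other here and above all other lines, whereas on the first probe set they were in the middle. The log2 fold change was −0.66 between heterozygous and wild-type ESCs (SE 0.15, limma adjusted p = 0.989, all probe sets) and 0.85 between null and heterozygous ESCs (SE 0.15, adjusted p = 0.0785). The remaining probe set, 1438476_a_at, was called present in 2 of the 3 null lines and in no other line. Null against wild-type gave 0.19 on 1436343_at and 0.46 on 1438476_a_at, beside −0.14 on the first probe set. No source used here says where on the transcript these probe sets lie. The paralog Chd3, another remodeling ATPase, was not well above background, with a present call in 1 null line only and log2 values of 4.69 to 5.09 over all lines.

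The Mta proteins are the scaffold on which the deacetylases are assembled, and the arrays measured 2 of the 3. Mta1 had log2 values of 7.53, 7.64 and 7.81 in wild-type ESCs, 7.96 and 7.28 in heterozygous ESCs, and 7.73, 7.18 and 7.65 in null ESCs. All genotypes overlapped, and the null minus wild-type log2 difference was −0.14 (SE 0.21, limma adjusted p = 0.841), with a 95% interval of −0.61 to 0.34. Without null line 3.38, the lowest of the 8, it was 0.03. Its other probe set was called present on no array.

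Mta3, the form known for its hormone-dependent expression, had log2 values of 6.48, 6.37 and 6.66 in wild-type ESCs, with a present call in 2 of them. It was at 6.59 and 7.07 in heterozygous ESCs, present in 1, and at 6.98, 6.62 and 7.27 in null ESCs, present in all 3. Null lines 3.34 and 7 lay above all wild-type lines and null line 3.38 among them. The log2 fold change was 0.45 (SE 0.19, unadjusted p = 0.0454, limma adjusted p = 0.292 over all genes, unfiltered). With the 3′ minus 5′ difference, confounded with genotype here, as a covariate it was −0.18. It was 0.30 without null line 7 and 0.62 without null line 3.38. With the Affymetrix signal intensities in place of RMA values it was 1.37 (limma adjusted p = 0.561). Of its other probe sets, 1443350_at had a log2 fold change of −0.18 and 1421402_at of 0.44, each with a present call on 3 of 8 arrays. On 1421402_at the null lines were at 5.20, 4.19 and 4.17, so that null line 3.34 alone stood above the rest.

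Mta2 was not well above background on its only probe set, with detection p-values of 0.112 to 0.568. Its log2 values were 5.32, 5.88 and 5.16 in wild-type ESCs, 5.00 and 5.34 in heterozygous ESCs, and 5.34, 5.57 and 6.14 in null ESCs. No fold is given for it. The same holds for Mbd3, the methyl-CpG binding domain protein that sets this form of NuRD apart from the one with Mbd2. Mbd3 read 3.42, 3.19 and 3.34 in the wild-type, 3.70 and 3.21 in the heterozygous and 3.86, 3.17 and 4.21 in the null lines in the same order, with detection p-values of 0.171 to 0.985. The subunit best known for the role of NuRD in ESCs therefore cannot be compared between genotypes on these arrays. Its paralog Mbd2 was called present in 1 wild-type and 1 null line, and had log2 values of 5.07 to 5.96 over all lines.

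Hdac1, one of the histone deacetylases of the complex, lay higher in all 3 null lines than in any wild-type line. It read 8.14, 7.61 and 8.18 in wild-type ESCs, 7.70 and 8.66 in heterozygous ESCs, and 8.56, 8.39 and 8.58 in null ESCs. The heterozygous lines stood at both ends, near the lowest wild-type line and above the highest null line. The null minus wild-type log2 difference was 0.54, or 1.45-fold (SE 0.25, unadjusted p = 0.0610, limma adjusted p = 0.338). It was 0.36 without wild-type line 3.2. With the 3′ minus 5′ difference, which cannot be told apart from genotype here, as a covariate it was 0.10. Hdac1 has a single probe set on the array.

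Hdac2, which shares the place in the complex with Hdac1, had log2 values of 8.96, 8.90 and 8.70 in wild-type ESCs, 8.72 and 9.39 in heterozygous ESCs, and 8.77, 9.05 and 8.64 in null ESCs. The genotypes overlapped, and the null minus wild-type log2 difference was −0.03 (SE 0.19, limma adjusted p = 0.966), with a 95% interval of 0.73-fold to 1.31-fold. A second probe set, 1449080_at, present on all arrays, had a log2 fold change of 0.25 (95% interval −0.09 to 0.59).
Within each array, the log2 value of Hdac1 minus that of Hdac2 was −0.82, −1.30 and −0.52 in wild-type ESCs and −0.21, −0.66 and −0.06 in null ESCs. Wild-type line 3.3 overlapped with the null lines, and the difference between the means of 0.57 had an exact two-sided permutation p of 0.2 (0.4 after Benjamini-Hochberg adjustment over the 2 ratios run). Without wild-type line 3.2 the difference was 0.37. The smallest p that 3 lines against 3 allow is 0.1.

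The Gatad2 proteins bridge the remodeling and the deacetylase modules of the complex. Gatad2a, the steadiest of the detected subunits, had log2 values of 8.12, 8.38 and 8.27 in wild-type ESCs, 8.29 and 8.50 in heterozygous ESCs, and 8.11, 8.18 and 8.23 in null ESCs, a range of 0.39 over all 8 lines. The null minus wild-type log2 difference was −0.08 (SE 0.11, limma adjusted p = 0.819). A second probe set, 1423992_at, disagreed. It read 7.33, 7.27 and 7.52 in the wild-type and 7.55, 7.85 and 8.07 in the null lines in the same order, so that each null line was above each wild-type line. Its log2 fold change was 0.45 (SE 0.16, unadjusted p = 0.0188, limma adjusted p = 0.241, all probe sets).

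Gatad2b had log2 values of 7.23, 7.32 and 7.05 in wild-type ESCs, 6.92 and 7.39 in heterozygous ESCs, and 7.07, 7.01 and 6.75 in null ESCs. The highest null line was above the lowest wild-type line by 0.01 only, and the log2 fold change was −0.26 (SE 0.16, limma adjusted p = 0.491). The next probe set, 1425075_at, present on 6 of 8 arrays, had −0.21 (95% interval −0.44 to 0.03). The log2 value of Gatad2a minus that of Gatad2b differed by 0.17 between null and wild-type means (exact two-sided permutation p = 0.5).

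Counted over probe sets, 0 of the 26 passed an adjusted p under 0.05 in limma between null and wild-type ESCs (0.52% of all 45037 probe sets). None passed between heterozygous and wild-type ESCs (0.00222%) or between null and heterozygous ESCs (0.0111%). At an unadjusted p under 0.05 there were 4, 2 and 4 of the 26 in these comparisons, against 13.3%, 4.1% and 11.7% of all probe sets. The 4 between null and wild-type ESCs belonged to Chd4, Mta3, Gatad2a and Rbbp7. That of Chd4 was 1438476_a_at, called present only in 2 null lines, in which it was high. Those of the heterozygous lines both belonged to Chd4, and those between null and heterozygous ESCs to Chd4 (2, of which 1 was again 1438476_a_at), Hdac2 and Rbbp7. The Hdac2 probe set was 1449080_at, with 7.35, 7.11 and 7.39 in wild-type, 7.01 and 7.25 in heterozygous and 7.33, 7.81 and 7.46 in null ESCs. Its log2 difference of null minus heterozygous was 0.40 (SE 0.16, limma adjusted p = 0.389), where that of the main Hdac2 probe set was −0.23.

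**Figure D3:**
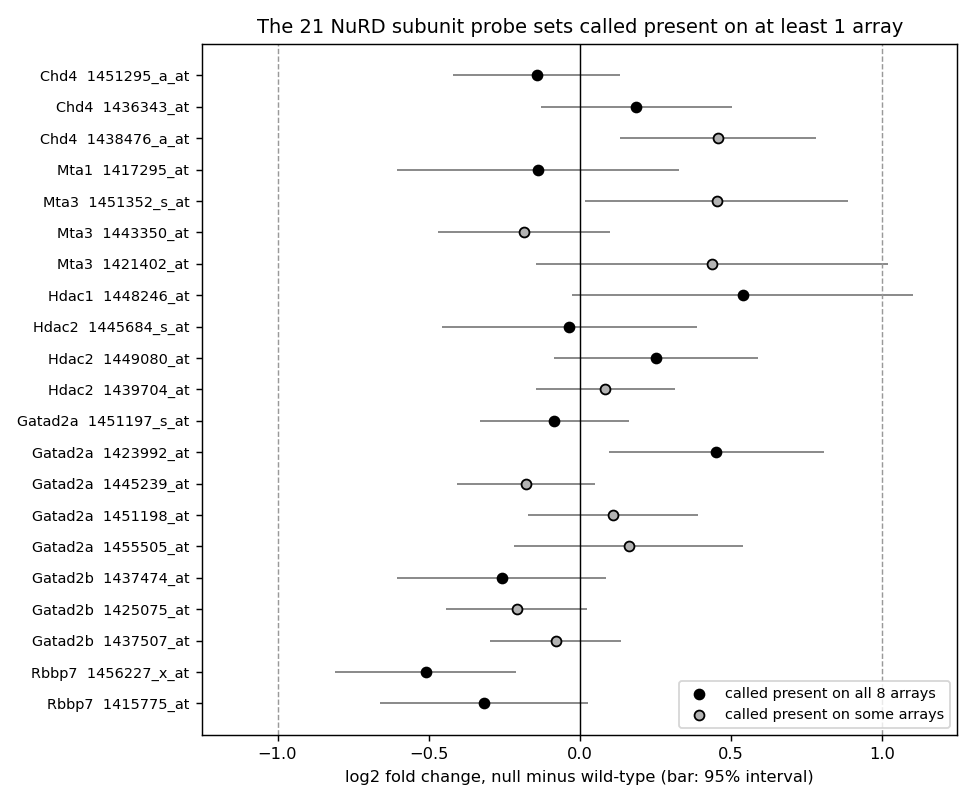
Log2 fold change of null against wild-type lines (points) with its 95% interval from limma (bars) for the 21 NuRD subunit probe sets called present on at least 1 array, black where called present on all 8 arrays and grey where on some. Probe sets of 1 gene differ in sign for Chd4, Mta3, Hdac2 and Gatad2a, and both Rbbp7 probe sets lie below 0.

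Rbbp7, a histone-binding protein with WD repeats that NuRD shares with the Sin3 and Polycomb complexes, had the smallest p of the subunits between null and wild-type ESCs. On the log2 scale it read 11.86, 11.99 and 11.96 in wild-type ESCs, 11.71 and 12.10 in heterozygous ESCs, and 11.37, 11.61 and 11.30 in null ESCs. All null lines were below all other lines, with the wild-type lines within 0.14 of each other. The log2 fold change was −0.51 against wild-type ESCs, or 0.70-fold (95% interval 0.57-fold to 0.87-fold, unadjusted p = 0.00512, limma adjusted p = 0.107). Against heterozygous ESCs it was −0.48 (SE 0.15, adjusted p = 0.197), and heterozygous against wild-type ESCs gave −0.03 (SE 0.15, adjusted p = 0.997). In neither comparison of the null lines did it pass the adjusted threshold.

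The probe set behind these values, 1456227_x_at, is by its suffix one in which some probes match further sequences. The other, 1415775_at, has no such suffix and read 11.39, 11.51 and 11.73 in wild-type ESCs, 11.12 and 11.38 in heterozygous ESCs, and 11.14, 11.49 and 11.04 in null ESCs. Null line 3.38 lay among the wild-type lines on it, and both heterozygous lines lay within the range of the null lines. Its null minus wild-type log2 difference was −0.32 (SE 0.15, limma adjusted p = 0.427, all probe sets), and heterozygous against wild-type gave −0.30. The main probe sets of Mta3 (1451352_s_at), Hdac2 (1445684_s_at) and Gatad2a (1451197_s_at) carry another suffix, for probes shared between transcripts. Which further transcripts they match was not checked.

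Rbbp7 lies on the X chromosome, and the lines differed in X-linked and Y-linked expression. Eif2s3y, a Y-linked translation factor gene, was called present in wild-type lines 3 and 3.2 and heterozygous line 3.1 (6.02, 5.67 and 6.13) and in no null line. The median log2 value of 204 X-linked genes present in all lines was 7.02, 7.05 and 7.61 in wild-type ESCs, 6.88 and 7.73 in heterozygous ESCs, and 6.73, 7.56 and 7.05 in null ESCs. The line without an Eif2s3y call had the highest of these medians in the wild-type and in the heterozygous group, while the null lines, all without the call, were spread from 6.73 to 7.56. Within the lines without the call, 1 of them wild-type, the Rbbp7 difference was −0.53 (limma adjusted p = 0.573). It was −0.63 with Eif2s3y as a covariate (adjusted p = 0.221), −0.48 with the X-linked median (adjusted p = 0.0730) and −0.50 with the 3′ minus 5′ difference (adjusted p = 1.00), all by limma. The Rbbp7 difference lay between −0.63 and −0.48 in these fits, beside −0.51 without them. The part of X-linked and Y-linked differences between lines in the Rbbp7 difference was not tested. The fit with the 3′ minus 5′ difference cannot separate it from genotype, since no null line overlapped with the other lines in it.

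**Figure D4:**
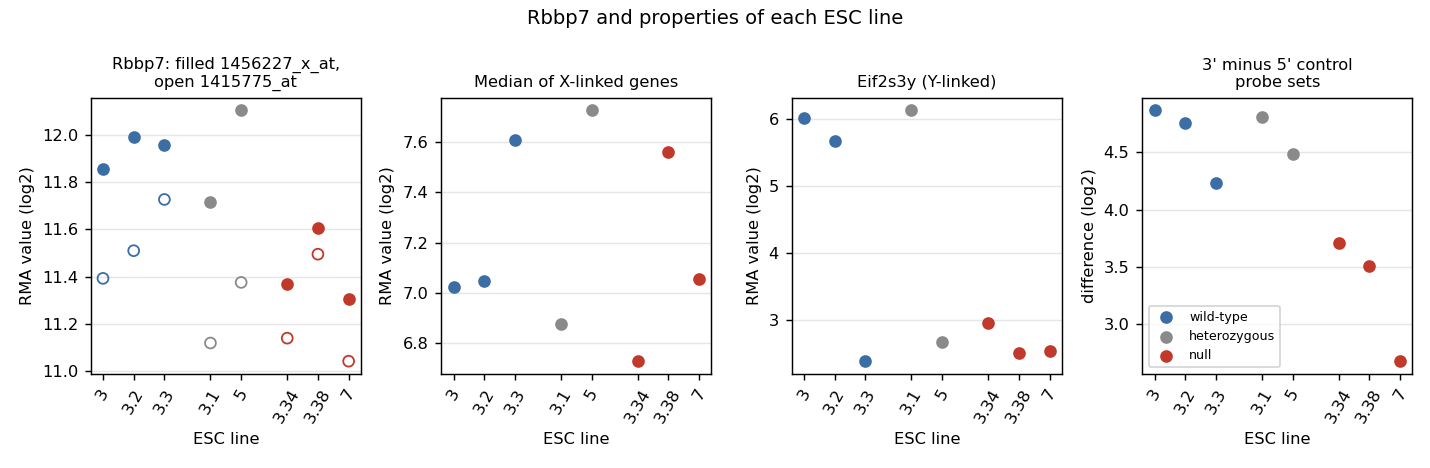
RMA value (log2) of both Rbbp7 probe sets, median RMA value of 204 X-linked genes, RMA value of the Y-linked Eif2s3y and the 3′ minus 5′ difference of control probe sets (log2), 1 point for each ESC line, coloured by genotype. The 3 null lines are the lowest for Rbbp7 on 1456227_x_at (filled, 11.30 to 11.61) and for the 3′ minus 5′ difference, and are spread from 6.73 to 7.56 for the X-linked median.

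Rbbp4, the paralog that can take the place of Rbbp7, had log2 values of 12.11, 11.89 and 11.81 in wild-type ESCs, 12.01 and 12.13 in heterozygous ESCs, and 11.81, 11.47 and 11.52 in null ESCs. The highest null line and the lowest wild-type line were at about the same value. Its null minus wild-type log2 difference was −0.34 (SE 0.13, unadjusted p = 0.0337, limma adjusted p = 0.252), of the same sign as that of Rbbp7.

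The study names 2 pairs of null and wild-type lines from the same litters, line 7 with line 3 and line 3.38 with line 3.3. Among the 8 detected subunits, Rbbp7 and Gatad2b were lower and Hdac1 was higher in the null line of both pairs. For Rbbp7 and Hdac1 the sign in any pair was fixed beforehand, since their null and wild-type lines did not overlap. How many of all genes kept the same sign in both pairs was not counted. The log2 difference for Rbbp7 was −0.56 and −0.35, that for Gatad2b was −0.48 and −0.04, and that for Hdac1 was 0.45 and 0.21. The other 5 subunits differed in sign between the pairs, with Mta3 at 0.80 and −0.04, Mta1 at 0.12 and −0.63, and Chd4 at −0.36 and 0.13. With the litter pair as a block, which keeps 4 lines, Rbbp7 had a log2 fold change of −0.45 (limma adjusted p = 0.207).

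No subunit passed the adjusted test between heterozygous and wild-type ESCs. In limma 0 of the 10 subunits passed, against 0% of all genes, and 1 had an unadjusted p under 0.05 (Chd4), against 3.85% of all genes. The lines did not overlap for 1 of the 10, again Chd4, against 17.3% of all genes. None was past 2-fold, against 0.335% of all genes. The other 7 detected subunits had log2 fold changes between −0.04 (Gatad2b) and 0.33 (Mta3). The Mta3 value was 0.087 without heterozygous line 5 and 0.57 without heterozygous line 3.1. Heterozygous line 5 was above line 3.1 for 7 of the 8 detected subunits, the exception being Mta1, and by 0.96 for Hdac1. The share over all genes was not counted. Line 3.1 had the lowest share of probe sets called present of all arrays, 28.4% against 32.3% in line 5. A difference of the whole array was not tested.

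Null and heterozygous ESCs were set apart by no subunit at the adjusted threshold either. In limma 0 of the 10 passed, against 0% of all genes, and Rbbp7 alone had an unadjusted p under 0.05, against 13.8% of all genes. None was past 2-fold, against 2.42% of all genes. The lines did not overlap for 4 of the 10, against 27.9% of all genes. These were Chd4 (0.24, higher in null lines), Gatad2a (−0.22, lower), Rbbp7 (−0.48, lower) and Mta2, which was not well above background. Without heterozygous line 5 the Rbbp7 difference was −0.29, and without heterozygous line 3.1 it was −0.68, each fit resting on 1 heterozygous line that is assumed to vary like the others.

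Among the remaining NuRD subunits and partner proteins, none of 16 measured genes passed an adjusted p under 0.05 between null and wild-type ESCs in limma, against 1.13% of all genes. At an unadjusted p under 0.05 there were 4, against 16.4% of all genes. The gene with the smallest p was Zfpm1, a cofactor of GATA factors that recruits NuRD. It had log2 values of 3.75 to 3.79 in wild-type and 3.32 to 3.51 in null lines and a log2 fold change of −0.33 (limma adjusted p = 0.147). These values lie in the range of Mbd3 (3.17 to 4.21), called present on no array. Zfpm1 was called present in 3 wild-type, 2 heterozygous and 1 null line, so it counts as detected only through the genotypes in which it was high. The gene with the next smallest p was Bcl11b, a zinc finger protein that was called present in no line and is given no fold. The median log2 fold change was −0.13 over the 9 detected genes of this list, beside −0.11 for the 8 detected core subunits.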

How the data were processed

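RNA of 8 mouse ESC lines was measured on 1 array each, and genotype and line came from the labels. The authors normalized the arrays by RMA and deposited log2 values per probe set (2.28 to 14.39 here). They also deposited, for each array, Affymetrix signal intensity values, with an unstated scaling, and beside them each probe set's detection call and p-value. RMA and limma are named without a version in the submitters' processing notes. Each log2 column matched the intensities of its own array best (8 of 8).

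Of 45101 probe sets, 64 controls were left out. The platform annotation named 1 gene for 34945, several for 932 and none for 9160, and 34741 were matched by Entrez identifier to a RefSeq table (GRCm38.p6), with 0 symbols updated. Each of the 18193 genes took the probe set with the highest mean. limma 3.58.1 in R 4.3.3 (lmFit, eBayes) modelled all 8 arrays by genotype, and p-values were adjusted over all genes by Benjamini-Hochberg. Detected means called present in every line of at least 1 genotype. Simulated data on 18193 genes gave calls for 73 of 100 genes changed by 1 and 92 of 100 changed by 2 (log2) between null and wild-type. The noise was drawn independently for each gene and array, without differences of whole arrays. The changes simulated were larger than any subunit difference in the main fit, so these rates do not give the power for those. The number of arrays limits the precision. Ratios of paralogs were tested by exact permutation over 20 labellings. Of 6 ratios planned, 2 were run, since the other 4 involve genes not present in every wild-type or every null line. Named genes are all subunits, their paralogs and Zfp281, and of each list of other NuRD and corepressor genes those that passed or the 2 with the smallest p. Pdgfrb, Dppa5a, Dppa4 and Lamb1 fall outside this rule and were named after their values were seen. Members and lists were chosen with earlier results of these data known. Alternatives were other probe set summaries, filters, normalizations, covariates and samples, with Python 3.11.15, numpy 2.4.6, pandas 2.3.3 and matplotlib 3.10.9.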

Additional observations from a re-analysis of the deposited data

How the results depend on the processing

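No subunit was called at an adjusted p under 0.05 in any of 22 alternatives, and the lowest adjusted p was 0.0725 (Rbbp7, null against wild-type, quantile normalization). In 9 of these alternatives at most 5 of all genes were called between null and wild-type ESCs, so that they say nothing about the stability of this count. The calls over all genes (206) became 0 with signal values, with the 3′ minus 5′ covariate and in lines without an Eif2s3y call, 442 over detected genes alone, and 2 to 208 when 1 line was left out. Between null and heterozygous ESCs 0 became 346 and 121 when line 3.2 or line 3.3, both wild-type, was left out, and 166 over detected genes alone. Rbbp7 and Hdac1 kept their sign between null and wild-type ESCs throughout, and Rbbp7 lay between −0.63 and −0.41. Fits on fewer lines without a covariate could not have changed these signs, as null and wild-type lines of both genes did not overlap. Of 512 alternative log2 fold changes, 50 changed sign, none of them called. The cause was not tested.

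The median of all 10 subunits, −0.06 between null and wild-type ESCs, was 0.13 with the probe sets of a gene averaged, −0.11 over detected genes, −0.13 after quantile normalization, −0.019 with signal values, 0.012 with the litter pair as replicate block, 0.090 in lines without an Eif2s3y call and −0.016 without wild-type line 3.2 and heterozygous line 3.1. Leaving out 1 line gave −0.070 to −0.016. With signal values 2 subunits passed 2-fold, among them Mta3 (log2 fold change 1.37) as the only detected one. The Gatad2a to Gatad2b ratio was −0.0018 with them.

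With averaged probe sets, null against wild-type turned to 0.17 (Chd4), 0.10 (Hdac2) and 0.092 (Gatad2a), heterozygous against wild-type to 0.031 (Mta1) and null against heterozygous to 0.085 (Hdac2). Signal values gave 0.058 (Chd4, null against wild-type), 0.017 (Gatad2b, heterozygous against wild-type) and 0.32 (Mta1, null against heterozygous). With the 3′ minus 5′ covariate, null against wild-type was 0.20 (Chd4), −0.18 (Mta3), 0.15 (Hdac2) and 0.027 (Gatad2b), and null against heterozygous −0.52 (Mta3), −0.11 (Hdac1) and 0.079 (Gatad2b). Mta3, null against heterozygous, was −0.029 with the Y-linked mean and −0.043 with Eif2s3y as a covariate. Hdac2, null against wild-type, was 0.0055 with the X-linked median. The litter pair as replicate block, which rests on 2 pairs and changed no call, gave 0.015 (Hdac2) and 0.0088 (Gatad2a). In lines without an Eif2s3y call, null against wild-type was 0.063 (Chd4) and 0.12 (Hdac2), and heterozygous against wild-type 0.34 (Gatad2b) and 0.15 (Rbbp7). Without wild-type line 3.2 and heterozygous line 3.1 the latter were 0.25 and 0.20. In both, null against heterozygous was 0.24 (Mta1), −0.12 (Mta3) and −0.15 (Hdac1). The Eif2s3y, X-linked and 2-line alternatives were chosen after seeing the data.

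Leaving out 1 line in turn, the values that changed sign ranged as follows. Null against wild-type was −0.24 to 0.031 (Mta1) and −0.15 to 0.055 (Hdac2). Heterozygous against wild-type was −0.38 to 0.30 (Mta1), −0.27 to 0.68 (Hdac1), −0.14 to 0.53 (Hdac2), −0.28 to 0.19 (Gatad2b) and −0.22 to 0.17 (Rbbp7). Null against heterozygous was −0.44 to 0.24 (Mta1), −0.12 to 0.37 (Mta3), −0.15 to 0.81 (Hdac1), −0.57 to 0.10 (Hdac2) and −0.45 to 0.024 (Gatad2b).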

Other observations

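Other corepressor complexes that hold class I deacetylases were measured on the same arrays, and none of their genes passed an adjusted p under 0.05 in limma between null and wild-type ESCs. The share of all genes that passed was 1.13%. At an unadjusted p under 0.05 it was 16.4%, or 31.7% of the detected genes. Null and wild-type lines did not overlap for 22.4% of all genes. The genes named below are the 2 with the smallest p of each list. Of 12 measured Sin3 complex genes, 11 were detected, 0 passed and 2 had an unadjusted p under 0.05, with a median log2 fold change of −0.12 over the detected genes. Sap30l, a Sin3-associated protein, was at 7.87, 7.13 and 7.88 in wild-type, 6.97 and 6.97 in heterozygous and 8.33, 8.32 and 8.42 in null ESCs, so that all null lines were above and both heterozygous lines below all wild-type lines (null against wild-type log2 fold change 0.73, SE 0.19, limma adjusted p = 0.106). Sin3b, a scaffold of that complex, had −0.36 (SE 0.14, limma adjusted p = 0.228).

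Of 8 measured CoREST complex genes, 5 were detected, 0 passed and 2 had an unadjusted p under 0.05, with a median of 0.12 over the detected genes. Zmym2, a zinc finger protein of this complex, was at 8.25, 8.11 and 8.10 in wild-type, 8.16 and 8.07 in heterozygous and 7.68, 7.72 and 7.33 in null ESCs. Its null lines lay below all other lines, with a log2 fold change of −0.58 (SE 0.13, limma adjusted p = 0.0734). Rcor2, a CoREST paralog, was called present in no wild-type or heterozygous line, with log2 values of 6.58 to 6.66 in wild-type and 7.25 to 8.39 in null ESCs.

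Of 5 measured NCoR and SMRT complex genes, 4 were detected, 0 passed and 2 had an unadjusted p under 0.05, with a median of −0.25 over the detected genes. Tbl1x, an X-linked WD repeat protein of these complexes, was at 7.68, 7.72 and 7.95 in wild-type, 7.47 and 8.20 in heterozygous and 7.13, 7.24 and 6.73 in null ESCs (log2 fold change −0.75, SE 0.21, limma adjusted p = 0.117). Hdac3, their deacetylase, was at 7.35, 7.15 and 7.78 in wild-type, 7.01 and 7.43 in heterozygous and 7.88, 8.04 and 7.85 in null ESCs (log2 fold change 0.50, SE 0.18, limma adjusted p = 0.210). Neither gene had null lines that overlapped with the wild-type lines.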
